A study of Mus musculus with 19 samples.

Results

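The epithelial sodium channel and the genes that carry the aldosterone signal to it were followed through ischemia-reperfusion injury of the mouse kidney and through gavage with Lactobacillus before the injury. The set was chosen by gene symbol and holds 7 of the 19287 entries of the deposited expression table. Scnn1a (gene ID 20276), Scnn1b (20277) and Scnn1g (20278) encode the alpha, beta and gamma subunits of the channel. Nr3c2 (110784) encodes the mineralocorticoid receptor, and Hsd11b2 (15484) the enzyme 11-beta-hydroxysteroid dehydrogenase type 2. Sgk1 (20393) encodes a serum- and glucocorticoid-regulated kinase, and Nedd4l (83814) the ubiquitin ligase known as Nedd4-2. All 7 genes were found, and each reached 1 FPKM in all 19 libraries, so all 7 were tested. FPKM is the number of sequenced fragments scaled by gene length and by the size of the library.

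The libraries were made from whole kidneys of male C57BL/6 mice, an inbred strain, and fall into 4 groups by their titles. IRLacz (n = 4) had received Lactobacillus casei Zhang by gavage for 4 weeks and then ischemia-reperfusion. IRLac (n = 5) had the same injury after gavage with another Lactobacillus, taken as L. acidophilus by elimination, because the design text abbreviates that strain with a further letter. IR (n = 5) had the injury, and sham (n = 5) the sham operation, with no gavage given in the labels for either. Kidneys of the injured groups were collected on day 5 after the injury, in which blood flow is stopped for a time and then restored. No day is given for sham. The labels name no batch and do not say that each library is a mouse of its own, so p-values measure the spread between these libraries. Because whole kidneys were used, fewer cells of a type and less RNA per cell cannot be told apart.

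Aldosterone, a steroid of the adrenal cortex, enters the cells of the late distal convoluted tubule, connecting tubule and collecting duct and binds the mineralocorticoid receptor. Cortisol or corticosterone would also bind this receptor, and the type 2 dehydrogenase inactivates them in these cells. The receptor raises transcription of target genes, among them Sgk1 and, in the kidney, Scnn1a. The Sgk1 kinase phosphorylates Nedd4-2, which otherwise tags the channel for removal from the apical membrane. The 3 subunits assemble into the channel, through which sodium leaves the urine, and proteases such as prostasin and furin open it further by cutting the alpha and gamma subunits.

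The promoters of Sgk1, Scnn1g and Scnn1b are shown because Sgk1 is a classical steroid target and because Scnn1g and Scnn1b, which start on the same strand of chromosome 7, had the most similar profiles of any pair of the 7 genes. RefSeq windows of build GRCm38.p6 covering the 250 bases before a transcription start were matched by symbol. The 4 genes Scnn1b, Scnn1g, Nr3c2 and Sgk1 had 9 windows between them. The genes Scnn1a, Hsd11b2 and Nedd4l are named without a window. The expression values were made on another build, so these coordinates are not those of the deposited data. The windows below lie at chr7:121734229-121734478 for Scnn1g, chr7:121864788-121865037 for Scnn1b and chr10:21993640-21993889 for Sgk1, all on the plus strand and written 5′ to 3′. Capitals mark the element AGAACA, or TGTTCT where it lies on the other strand, to which the mineralocorticoid and glucocorticoid receptors can both bind.
Scnn1g: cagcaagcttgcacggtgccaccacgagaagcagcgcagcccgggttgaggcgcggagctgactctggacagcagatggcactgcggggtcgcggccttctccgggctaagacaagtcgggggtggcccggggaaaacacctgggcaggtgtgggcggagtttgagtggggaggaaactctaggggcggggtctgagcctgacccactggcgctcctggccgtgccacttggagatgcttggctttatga
Scnn1b: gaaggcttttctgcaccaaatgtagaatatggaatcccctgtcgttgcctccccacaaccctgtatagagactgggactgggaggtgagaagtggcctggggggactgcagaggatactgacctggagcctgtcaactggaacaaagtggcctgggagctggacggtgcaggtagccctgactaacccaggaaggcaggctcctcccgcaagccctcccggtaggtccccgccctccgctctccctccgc
Sgk1: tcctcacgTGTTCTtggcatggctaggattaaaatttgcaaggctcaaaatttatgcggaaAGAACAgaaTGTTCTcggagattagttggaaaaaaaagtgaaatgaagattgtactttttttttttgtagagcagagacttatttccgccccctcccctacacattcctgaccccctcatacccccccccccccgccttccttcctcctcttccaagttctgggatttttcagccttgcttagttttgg

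Of the 6 windows of Sgk1, each before a transcription start of its own, the one shown held the element most often. It held the element 3 times, with first bases at -242, -189 and -180 counted from that start. The last 2 formed the spaced pair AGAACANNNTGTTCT. Of all 32851 windows, 16.1% held AGAACA on either strand and 3 (0.00913%) held the spaced pair. The window shown, the highest of 6, cannot be set against these shares like a window taken at random. The element was in 3 of the 6 windows of Sgk1 and in 0 of the windows of Scnn1b, Scnn1g and Nr3c2. The most downstream Sgk1 window, at chr10:21994416-21994665, was among those without it. A match describes letters in these windows and was not tested as a binding site.

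Over the 13594 entries tested, each library was placed on the line from the sham mean (0%) to the IR mean (100%). The position was 45.9% for IRLacz replicate 1 and 66.9% for IRLac replicate 3, and the other 12 libraries of injured kidneys lay between 77.4% and 106%. Values without both, a choice made after seeing the data, stand beside the channel subunits in the comparisons with IR and wherever a call changed. Libraries of a group correlated at 0.960 to 0.993 on the log2(FPKM + 1) scale. Read depth is not stated, and relative depth estimated from the steps between low values was 1.0 to 1.019, which need not reveal a far shallower library. Injury moved the median tested entry by 0.29 on the log2(FPKM + 1) scale in IR minus sham, and by 0.01 after median-ratio scaling. Differences against sham, of the 7 genes and of the other genes named, are read beside that shift.

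Among the 7 genes, the alpha subunit transcript had the largest fitted difference with injury: it fell in IR kidneys to 48.1% of the sham mean. Scnn1a was at 24.3, 26.4, 19.7, 25.3 and 34.8 FPKM in the IR libraries, against 49.9, 55.3, 63.4, 51.3 and 51.3 FPKM in the sham libraries. Every IR library lay below every sham library. The means were 26.1 ± 5.49 FPKM in IR and 54.3 ± 5.50 FPKM in sham (SD, n = 5 each), and the log2 difference was -1.05 (SE 0.18, 95% interval -1.43 to -0.66, limma adjusted p = 5.16e-05). The call held with each library left out in turn, with a highest adjusted p of 0.000238.

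The beta and gamma subunits did not pass the test. Scnn1b was at 19.2, 19.2, 11.8, 19.2 and 21.9 FPKM in the IR libraries and at 19.9, 22.3, 20.7, 20.8 and 20.9 FPKM in the sham libraries. IR replicate 3 stood well below the rest, and only IR replicate 5 reached the sham range. The log2 difference of Scnn1b was -0.21 (95% interval -0.59 to 0.16, limma adjusted p = 0.279). Scnn1g was at 11.4, 13.4, 8.53, 14.4 and 16.7 FPKM in the IR libraries and at 17.6, 18.1, 15.6, 15.6 and 16.97 FPKM in the sham libraries. Only the highest IR library reached the sham range. Its log2 difference was -0.38 (95% interval -0.78 to 0.01, limma adjusted p = 0.0721), and Scnn1g passed as lower without IR replicate 5 (adjusted p = 0.0333), with 2 groups only (0.0223) and without IRLacz replicate 1 and IRLac replicate 3 (0.047). Both differences lay below the median entry, and under median-ratio scaling both genes passed as lower, at -0.53 for Scnn1b (adjusted p = 0.0121) and -0.70 for Scnn1g (adjusted p = 0.00392).

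By ratios within each library, which do not depend on its scaling, the alpha subunit changed by a different factor from the beta and gamma subunits. The FPKM ratio of Scnn1a to Scnn1b was 1.27, 1.37, 1.67, 1.32 and 1.59 in the IR libraries, against 2.51, 2.48, 3.06, 2.47 and 2.46 in the sham libraries. The ranges were far apart. The log2 ratio differed by -0.85 (two-sided exact permutation p = 0.00794, the smallest that 5 against 5 libraries can give, and 0.0357 adjusted over the 9 ratio tests). The ratio of Scnn1a to Scnn1g averaged 2.05 ± 0.204 in IR and 3.26 ± 0.484 in sham (SD, n = 5 each), again with no overlap, and its log2 value differed by -0.66 (exact permutation p = 0.00794, adjusted p = 0.0357). The ratio of Scnn1b to Scnn1g averaged 1.43 ± 0.147 in IR and 1.25 ± 0.0839 in sham. Its log2 value differed by 0.19, short of the threshold once adjusted (exact permutation p = 0.0476, adjusted p = 0.143).

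**Figure D1:**
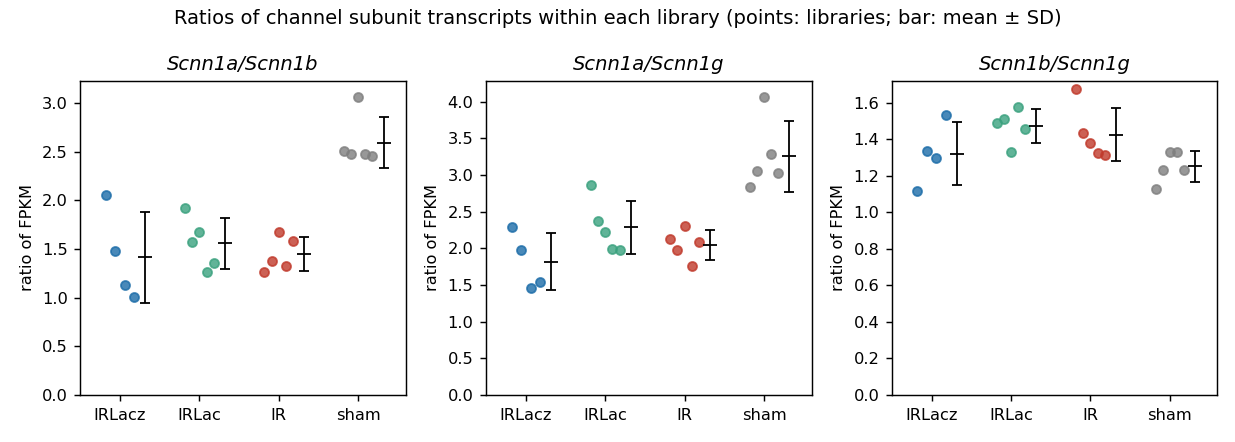
Ratios of channel subunit FPKM in each library (y axis, no unit), with 1 panel per ratio and the groups IRLacz, IRLac, IR and sham on the x axis. Points are libraries and black bars are mean ± SD (n = 4 for IRLacz, 5 for the others). The Scnn1a/Scnn1b ratio was 1.01 to 2.05 in IRLacz, 1.26 to 1.92 in IRLac and 1.27 to 1.67 in IR, below the 2.46 to 3.06 of sham.

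The receptor transcript was low throughout and the dehydrogenase transcript high. Nr3c2 was at 1.82, 1.54, 1.26, 2.06 and 2.15 FPKM in the IR libraries and at 1.56, 2.61, 2.73, 1.83 and 2.51 FPKM in the sham libraries. The groups overlapped over most of their ranges, and the log2 difference of -0.23 did not pass (95% interval -0.49 to 0.04, limma adjusted p = 0.108). Without sham replicate 1 the receptor passed as lower (adjusted p = 0.0322), as it did under median-ratio scaling (-0.46, adjusted p = 0.00242).

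Hsd11b2 was the most abundant of the 7 transcripts in every group by mean FPKM and fell in IR. It was at 101, 111, 75.2, 102 and 117 FPKM in the IR libraries, against 119.7, 135, 152, 127 and 122 FPKM in the sham libraries. All IR libraries lay below all sham libraries, although the highest IR and lowest sham library were close. The log2 difference was -0.38 (SE 0.15, 95% interval -0.68 to -0.07, limma adjusted p = 0.0264). The call was lost without IR replicate 3 (adjusted p = 0.0901) or sham replicate 3 (adjusted p = 0.0697).

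Sgk1 moved the other way, with higher levels in IR. It was at 24.7, 27.5, 31.6, 28.0 and 38.6 FPKM in the IR libraries and at 21.9, 16.8, 21.2, 31.4 and 18.7 FPKM in the sham libraries. The IR libraries lay above 4 of the sham libraries, and sham replicate 4 lay within the IR range. The log2 difference of 0.45 passed narrowly (SE 0.19, 95% interval 0.04 to 0.86, limma adjusted p = 0.0448). The call was lost without any of IR replicates 2, 3, 4 and 5 or sham replicates 1, 2, 3 and 5, with adjusted p up to 0.119. It was also lost with no filter on low values (adjusted p = 0.0652) and under median-ratio scaling, which gave 0.13 (adjusted p = 0.564).

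Nedd4l stayed in a narrow band of 13.0 to 18.4 FPKM over all 19 libraries. Its means were 14.4 ± 1.12 FPKM in IR and 15.8 ± 1.06 FPKM in sham (SD, n = 5 each), and the log2 difference of -0.13 did not pass (95% interval -0.28 to 0.02, limma adjusted p = 0.111). Under median-ratio scaling it was -0.44 and passed as lower (adjusted p = 5.91e-06). In IR minus sham, 3 of the 7 genes passed, 2 lower and 1 higher, where 75.6% of all tested entries passed, 18.6% lower and 57% higher. The median difference of the 7 genes was -0.23, against 0.29 for all tested entries. Under median-ratio scaling, which put the median entry at 0.01, 6 of the 7 passed, all lower. The shares over all tested entries given here belong to the fit without that scaling, so the 6 of 7 cannot be compared with them. The ranges of IR and sham did not overlap for 2 of the 7 genes, Scnn1a and Hsd11b2, against 63.8% of tested entries.

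**Figure D2:**
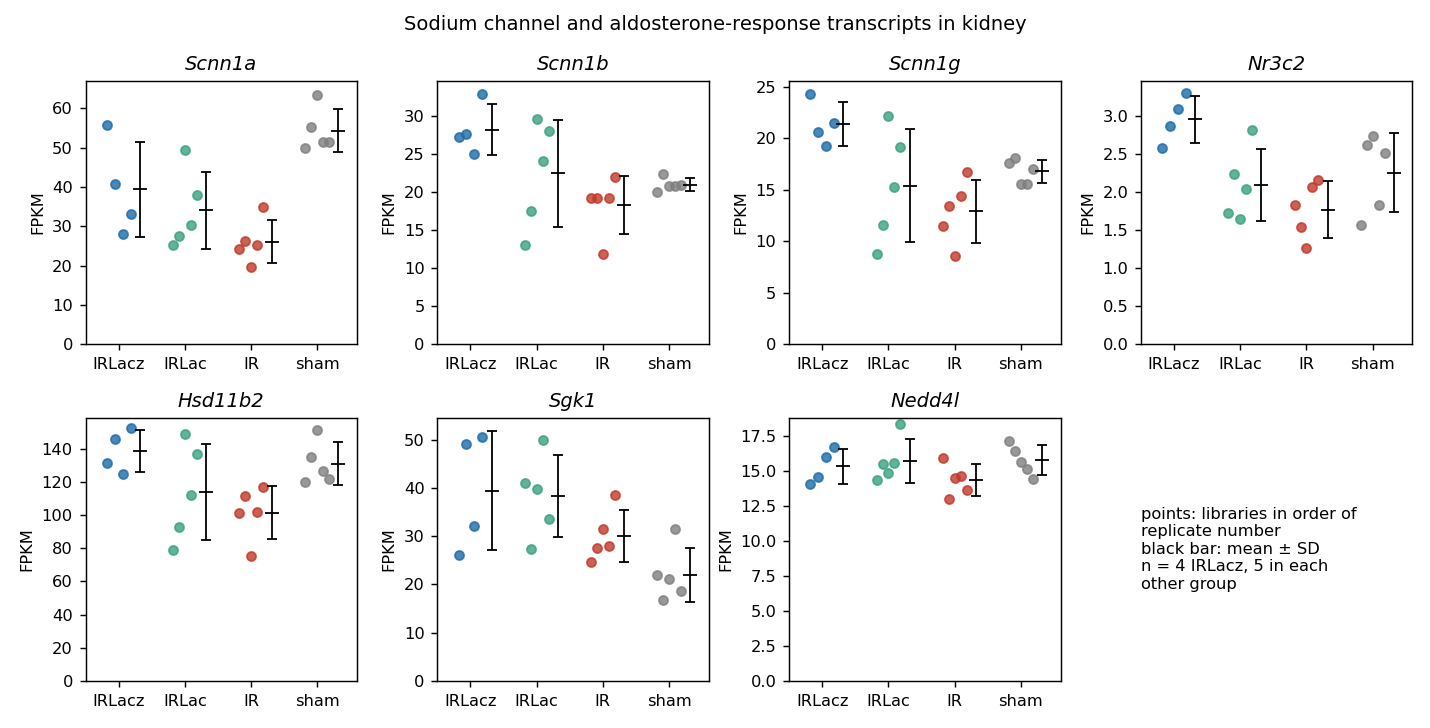
FPKM (y axis) of the 7 genes in each of the 19 libraries, by group (x axis). Points are libraries in order of replicate number and black bars are mean ± SD (n = 4 for IRLacz, 5 for the others). Scnn1a in IR (19.7 to 34.8 FPKM) lies below sham (49.9 to 63.4 FPKM), and Scnn1b, Scnn1g, Nr3c2 and Hsd11b2 in IRLacz lie above IR.

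Kidneys of mice gavaged with L. casei Zhang before the injury held more beta subunit, gamma subunit and receptor transcript than IR kidneys. Scnn1b was at 27.2, 27.5, 25.0 and 32.9 FPKM in the IRLacz libraries. All 4 lay above the highest IR library, which was at 21.9 FPKM. The means were 28.1 ± 3.35 FPKM in IRLacz (n = 4) and 18.2 ± 3.81 FPKM in IR (n = 5), 1.54 times as much, with a log2 difference of 0.62 (SE 0.19, 95% interval 0.22 to 1.01, limma adjusted p = 0.0382).

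Scnn1g was at 24.3, 20.6, 19.2 and 21.4 FPKM in the IRLacz libraries. These also lay above every IR library, the highest of which was at 16.7 FPKM. The means were 21.4 ± 2.15 FPKM in IRLacz and 12.9 ± 3.08 FPKM in IR (SD), and the log2 difference was 0.71 (SE 0.20, 95% interval 0.29 to 1.13, limma adjusted p = 0.027).

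Nr3c2 was at 2.57, 2.86, 3.08 and 3.29 FPKM in the IRLacz libraries. The highest IR library was at 2.15 FPKM, below all of these. The means were 2.95 ± 0.308 FPKM in IRLacz and 1.77 ± 0.369 FPKM in IR (SD), 1.67 times as much, with a log2(FPKM + 1) difference of 0.52 (SE 0.13, 95% interval 0.24 to 0.80, limma adjusted p = 0.0188). On this scale the change of a gene at such low FPKM is understated.

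Each of these 3 calls depended on single libraries. The receptor was lost only without IR replicate 3, with a limma adjusted p of 0.0593. The beta subunit was lost without IRLacz replicate 1, 2 or 4 or IR replicate 1, 2 or 3, with adjusted p between 0.0596 and 0.107, and with no filter on low values (adjusted p = 0.0577). The gamma subunit was lost without IRLacz replicate 1 or 2 or IR replicate 1, 2 or 3, with adjusted p between 0.0505 and 0.0799. The fitted differences in these cases stayed positive, with lowest values of 0.48 for Scnn1b, 0.59 for Scnn1g and 0.45 for Nr3c2. With IRLacz replicate 1 and IRLac replicate 3 both left out, all 3 genes passed, at 0.63 for Scnn1b (adjusted p = 0.0459), 0.65 for Scnn1g (adjusted p = 0.0394) and 0.57 for Nr3c2 (adjusted p = 0.0188).

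The alpha subunit and the dehydrogenase were just short of the threshold. Scnn1a was at 55.7, 40.7, 28.1 and 33.0 FPKM in the IRLacz libraries, a spread that overlapped the IR libraries. IRLacz replicate 1, the library placed nearest to sham over all entries, was the highest and lay within the sham range. The log2 difference was 0.55 (95% interval 0.14 to 0.96, limma adjusted p = 0.0661), and it passed without IRLacz replicate 3 (adjusted p = 0.0348) or IR replicate 5 (adjusted p = 0.0303). Without IRLacz replicate 1 and IRLac replicate 3 it was 0.37 (adjusted p = 0.121). Hsd11b2 was at 132, 146, 125 and 153 FPKM in the IRLacz libraries, all above the highest IR library, at 117 FPKM. Its log2 difference was 0.46 (95% interval 0.13 to 0.79, limma adjusted p = 0.0566), and it passed without IR replicate 5 (adjusted p = 0.04).

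The kinase and the ligase did not pass. Sgk1 was at 26.1, 49.1, 32.1 and 50.6 FPKM in the IRLacz libraries, of which 2 were above all IR libraries and 2 within the IR range. The log2 difference was 0.35 (95% interval -0.09 to 0.78, limma adjusted p = 0.261). Nedd4l averaged 15.3 ± 1.22 FPKM in IRLacz and 14.4 ± 1.12 FPKM in IR, a difference of 0.09 (95% interval -0.07 to 0.25, adjusted p = 0.444). In IRLacz minus IR, 3 of the 7 genes passed and all 3 were higher, where 13.3% of all tested entries passed, 5.39% as higher and 7.92% as lower. The ranges did not overlap for 4 of the 7, against 12.2% of entries. The median difference of the 7 genes was 0.52, against -0.0041 for all tested entries.

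None of the subunit ratios separated IRLacz from IR. The Scnn1a/Scnn1b ratio was 2.05, 1.48, 1.13 and 1.01 in the IRLacz libraries and averaged 1.42 ± 0.469 there, against 1.44 ± 0.175 in IR (SD). The log2 ratios differed by -0.08 for Scnn1a/Scnn1b (exact permutation p = 0.746), by -0.19 for Scnn1a/Scnn1g (p = 0.246) and by -0.11 for Scnn1b/Scnn1g (p = 0.349), and none passed after adjustment over the 9 tests.

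**Figure D3:**
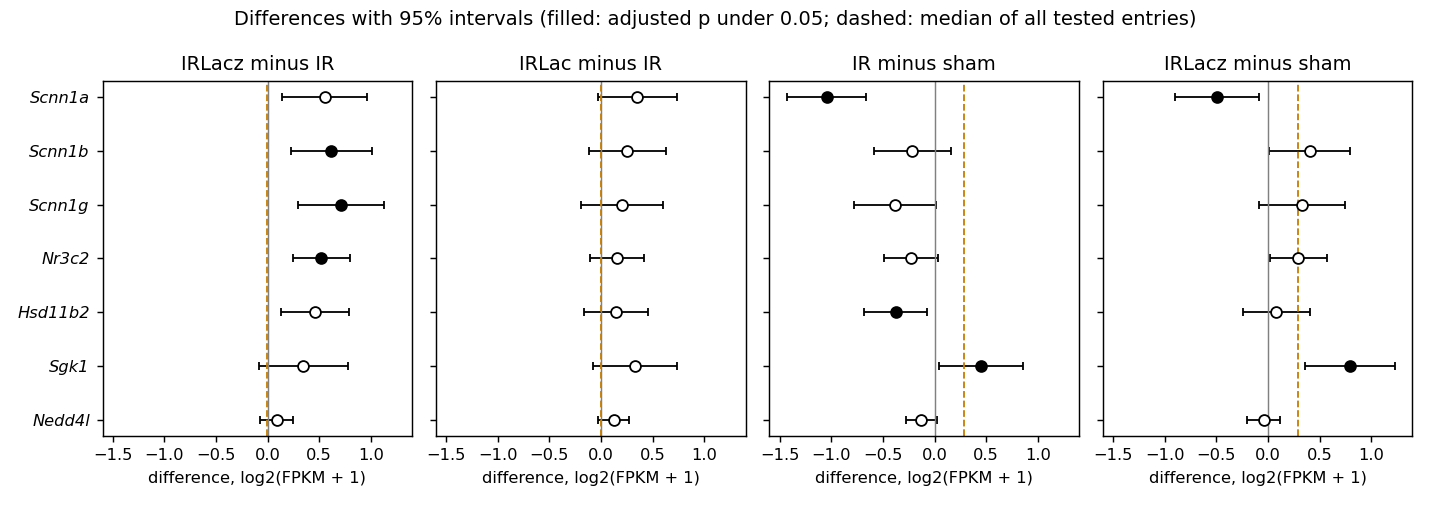
Fitted differences (x axis, log2(FPKM + 1)) of the 7 genes in 4 comparisons, with 95% intervals. Filled points passed at an adjusted p under 0.05 and the dashed line is the median of all tested entries. In IRLacz minus IR the passing genes are Scnn1b (0.62), Scnn1g (0.71) and Nr3c2 (0.52), and in IR minus sham Scnn1a (-1.05), Hsd11b2 (-0.38) and Sgk1 (0.45).

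In the IRLac libraries the 7 genes spread more widely than in the IR libraries. Against IR 0 of 7 passed with limma, and 0 had an unadjusted p under 0.05. Among all tested entries 0.00736% passed, which is 1 entry, a lower one, and 786 had an unadjusted p under 0.05. Ranges of IRLac and IR overlapped for all 7 genes, where 0.559% of entries had ranges that did not. Scnn1a was at 25.2, 27.4, 49.4, 30.4 and 37.9 FPKM in the IRLac libraries, Scnn1b at 13.1, 17.5, 29.5, 24.1 and 28.0 FPKM, and Scnn1g at 8.77, 11.6, 22.2, 15.3 and 19.2 FPKM. IRLac replicate 3 was the highest library of its group for each subunit, and replicate 1 the lowest. The log2 differences from IR were 0.35 for Scnn1a (95% interval -0.03 to 0.74), 0.25 for Scnn1b (-0.12 to 0.63) and 0.20 for Scnn1g (-0.19 to 0.60). These values rested on single libraries: with 1 left out they were 0.21 to 0.46 for Scnn1a, 0.11 to 0.42 for Scnn1b and 0.06 to 0.37 for Scnn1g. Without IRLac replicate 3 they were 0.21 for Scnn1a, 0.14 for Scnn1b and 0.06 for Scnn1g, the same as without IRLacz replicate 1 as well. Without IR replicate 3 they were 0.11 for Scnn1b and 0.07 for Scnn1g, and without IRLac replicate 1 they were 0.42 for Scnn1b and 0.37 for Scnn1g.

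Hsd11b2 was at 79.1, 93.0, 149, 112 and 137 FPKM in the IRLac libraries, in the same order of libraries as Scnn1b and Scnn1g, and differed from IR by 0.14 (95% interval -0.16 to 0.45). Nr3c2 was at 1.72, 2.23, 1.64, 2.04 and 2.81 FPKM and differed by 0.16 (-0.11 to 0.42). Replicate 3, the highest for the subunits and the dehydrogenase, was the lowest for the receptor. Sgk1 was at 41.0, 27.3, 39.9, 50.0 and 33.5 FPKM in the IRLac libraries and differed by 0.33 (-0.08 to 0.74), with 3 of 5 libraries above the IR range. Nedd4l averaged 15.7 ± 1.57 FPKM in IRLac and differed by 0.12 (-0.03 to 0.27).

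Set directly against each other, IRLacz and IRLac did not differ in any of the 7 genes by limma after adjustment, where 0.0221% of tested entries (3 entries) passed, 0.0147% as lower. Their ranges overlapped for all 7 genes, where 2.94% of entries had ranges apart. Before adjustment, 2 of the 7 were under 0.05, as were 2171 entries. These were Scnn1g, higher in IRLacz by 0.51 (95% interval 0.09 to 0.93, adjusted p = 0.229), and Nr3c2, higher by 0.36 (95% interval 0.09 to 0.64, adjusted p = 0.2). Sgk1 differed by 0.02 (adjusted p = 0.978). The pass of the beta and gamma subunits and the receptor in IRLacz, and not in IRLac, is thus not shown to be a difference between the strains.

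Against sham, both gavaged groups had less alpha subunit and more Sgk1 transcript. Scnn1a averaged 39.4 ± 12.1 FPKM in IRLacz, 34.1 ± 9.85 FPKM in IRLac and 54.3 ± 5.50 FPKM in sham, or 72.6% of the sham mean in IRLacz and 62.8% in IRLac. It fell by 0.49 in IRLacz minus sham (SE 0.19, limma adjusted p = 0.031) and by 0.69 in IRLac minus sham (SE 0.18, adjusted p = 0.00236). The IRLacz call was lost without IRLacz replicate 3 (adjusted p = 0.132) or 4 (0.091), or sham replicate 2 (0.0506) or 3 (0.071). Without IRLacz replicate 1 and IRLac replicate 3 the difference was -0.67 (adjusted p = 0.00099). The IRLac call held with each library left out. Hsd11b2 did not pass in IRLac minus sham (-0.23, adjusted p = 0.158), but it passed as lower without IRLac replicate 3 (-0.34, adjusted p = 0.0376), without that library and IRLacz replicate 1 (adjusted p = 0.0404) and under median-ratio scaling (-0.58, adjusted p = 0.00219).

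Sgk1 averaged 39.5 ± 12.3 FPKM in IRLacz, 38.4 ± 8.51 FPKM in IRLac and 22.0 ± 5.64 FPKM in sham. It rose by 0.79 in IRLacz minus sham (SE 0.21, limma adjusted p = 0.00239) and by 0.78 in IRLac minus sham (SE 0.19, adjusted p = 0.00151). In IRLacz 3 of 4 libraries, and in IRLac 4 of 5, lay above the sham range. Both calls held with each library left out, and under median-ratio scaling the differences were 0.47 in IRLacz (adjusted p = 0.0482) and 0.44 in IRLac (adjusted p = 0.0451). These comparisons and that of IR share the sham libraries.

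The beta and gamma subunits in IRLacz lay above sham in every library, with means of 28.1 ± 3.35 FPKM in IRLacz and 20.9 ± 0.876 FPKM in sham for Scnn1b, and of 21.4 ± 2.15 FPKM in IRLacz and 16.8 ± 1.15 FPKM in sham for Scnn1g. Neither passed, at 0.40 for Scnn1b (95% interval 0.01 to 0.80, limma adjusted p = 0.0637) and 0.33 for Scnn1g (95% interval -0.09 to 0.75, adjusted p = 0.147), and under median-ratio scaling the differences were 0.08 for Scnn1b and 0.01 for Scnn1g. Scnn1b passed as higher under TPM scaling (adjusted p = 0.0389), with 2 groups only (0.00122) and with a replicate block (0.0458), and Scnn1g passed with 2 groups only (0.0039). Nr3c2 differed by 0.29 (95% interval 0.02 to 0.57, adjusted p = 0.0555), the same as the median of all tested entries. It was 0.05 under median-ratio scaling (adjusted p = 0.728). It passed as higher under TPM scaling (adjusted p = 0.046), with a replicate block (0.022), and without IRLacz replicate 1 (0.0412), sham replicate 2 (0.0426) or 3 (0.0337), or the 2 libraries nearest to sham (0.0375). Hsd11b2 averaged 138.7 ± 12.9 FPKM in IRLacz and 131 ± 12.9 FPKM in sham and differed by 0.08 (adjusted p = 0.646), with the sign turned under median-ratio scaling, at -0.25 (adjusted p = 0.176). Of the 7 genes, 2 passed in IRLacz minus sham, where 70.3% of tested entries passed, and 2 in IRLac minus sham, where 74.8% passed. Ranges did not overlap for 2 of 7 in IRLacz minus sham, against 55.1% of entries, and for 1 of 7 in IRLac minus sham, against 58.4%.

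The order of the 7 transcripts by FPKM, which is scaled by length, differed between groups only in its middle. In IRLacz the means ran from Hsd11b2 (138.7 FPKM) through Sgk1 (39.5), Scnn1a (39.4), Scnn1b (28.1), Scnn1g (21.4) and Nedd4l (15.3) to Nr3c2 (2.95). In sham they ran from Hsd11b2 (131 FPKM) through Scnn1a (54.3), Sgk1 (22.0), Scnn1b (20.9), Scnn1g (16.8) and Nedd4l (15.8) to Nr3c2 (2.25). Sgk1 and Scnn1a in IRLacz, and Scnn1g and Nedd4l in sham, were closer than their SDs. Sgk1 and Scnn1b in sham were within the SD of Sgk1, and Scnn1a and Scnn1b in IRLacz within the SD of Scnn1a. In IR, Sgk1 (30.0 FPKM) stood above Scnn1a (26.1 FPKM), within their SDs, and Nedd4l (14.4 FPKM) above Scnn1g (12.9 FPKM).

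Other genes of the pathway were read from 7 lists with 62 genes, of which 58 were tested. Refits with 1 library left out are not given for these genes or for the cell type markers. Over all tested entries, such refits gave 606 to 2197 calls in IRLacz minus IR. The counts of each list stand beside shares over all tested entries of 57% higher and 18.6% lower in IR minus sham, and of 5.39% higher and 7.92% lower in IRLacz minus IR. Differences and list medians stand beside a median of all tested entries of 0.29 in IR minus sham and -0.0041 in IRLacz minus IR. Values of these genes under median-ratio scaling are not given here. Proteases that cut the channel and their inhibitors had 5 of 8 tested genes higher and 3 lower in IR minus sham, with a median difference of 0.40. Serpine2, an inhibitor of serine proteases, averaged 52.2 ± 3.56 FPKM in IR and 9.28 ± 1.54 FPKM in sham (log2 difference 2.38, limma adjusted p = 3.58e-09). Spint1, which encodes an inhibitor of matriptase and prostasin, averaged 65.6 ± 1.32 FPKM in IR against 45.8 ± 2.86 FPKM in sham, and St14, which encodes matriptase, 52.6 ± 3.80 FPKM in IR and 30.5 ± 5.44 FPKM in sham. The 3 lower genes, named after their values were seen, were Prss8 (prostasin, 146 ± 15.7 FPKM in IR and 198 ± 17.1 FPKM in sham), Furin and Tmprss2. Tmprss2, a membrane serine protease, passed as higher in IRLacz minus IR, at 60.0 ± 3.84 FPKM in IRLacz and 42.0 ± 4.75 FPKM in IR (log2 difference 0.51, adjusted p = 0.00526). No other gene of that list passed there.

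Among the relatives, adaptors and deubiquitinases of Nedd4l, 4 of 11 tested genes were higher and 3 lower in IR minus sham, with a median of -0.07. Nedd4 itself, the ligase most like Nedd4l, averaged 111 ± 6.20 FPKM in IR and 58.5 ± 1.75 FPKM in sham (log2 difference 0.91, limma adjusted p = 5.4e-07), while Nedd4l did not pass. Ywhaq and Ywhab encode 14-3-3 proteins, a family that binds phosphorylated Nedd4-2, and both rose in IR. Ywhab averaged 104 ± 4.23 FPKM in IR, against 76.9 ± 2.34 FPKM in sham, and it was lower in IRLacz, at 89.9 ± 6.91 FPKM, than in IR (log2 difference -0.21, adjusted p = 0.0279).

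The list of Sgk kinases, their activators and scaffold had 3 of 8 genes higher and 2 lower in IR minus sham (median 0.10) and 0 in IRLacz minus IR. Cnksr3, a scaffold that joins Sgk1 to Nedd4-2 and the channel, averaged 12.2 ± 0.715 FPKM in IR and 6.84 ± 1.03 FPKM in sham (log2 difference 0.75, limma adjusted p = 5.54e-07). Mlst8, a subunit of the complexes that activate these kinases, was also higher. Mtor, the kinase of those complexes, averaged 24.5 ± 3.78 FPKM in IR and 51.9 ± 4.54 FPKM in sham (log2 difference -1.06, adjusted p = 4.98e-07). Sgk2, the other gene that fell, was named after its values were seen: it averaged 30.2 ± 6.85 FPKM in IR and 65.0 ± 6.06 FPKM in sham (log2 difference -1.10, adjusted p = 4.91e-05), opposite in sign to Sgk1.

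Of 6 genes of the WNK pathway, which sets the balance of sodium chloride uptake and potassium loss upstream of the channel, 3 were lower and 1 higher in IR (median -0.35). Klhl3, the adaptor through which WNK kinases are degraded, averaged 8.03 ± 2.34 FPKM in IRLacz, 4.24 ± 1.34 FPKM in IR and 12.2 ± 1.30 FPKM in sham. It fell by 1.36 in IR minus sham (limma adjusted p = 1.53e-06) and was higher by 0.79 in IRLacz minus IR (adjusted p = 0.0135). Wnk1 was lower in IR, at 33.4 ± 4.39 FPKM against 54.6 ± 4.91 FPKM in sham. The kinase gene Oxsr1 was higher (log2 difference 0.34, limma adjusted p = 2.07e-05), by little more than the 0.29 of the median entry.

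Genes for partners of the steroid receptors and for steroid conversion had 4 of 10 higher and 2 lower in IR (median 0.04). Hsd11b1, which regenerates active glucocorticoid, averaged 37.8 ± 3.61 FPKM in IR and 64.3 ± 10.6 FPKM in sham (log2 difference -0.74, limma adjusted p = 1.87e-05). H6pd, which supplies the cofactor of the Hsd11b1 enzyme, was higher, at 109.7 ± 6.52 FPKM in IR against 82.9 ± 7.23 FPKM in sham (adjusted p = 0.00108). In IRLacz minus IR, 4 of 10 were lower and 0 higher. Of these, Hsp90aa1, a chaperone that holds steroid receptors ready for hormone, averaged 181 ± 24.4 FPKM in IRLacz and 264 ± 39.4 FPKM in IR (log2 difference -0.54, adjusted p = 0.0246), and its co-chaperone Fkbp4 averaged 127 ± 18.5 FPKM in IRLacz and 157 ± 13.4 FPKM in IR.

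Genes that corticosteroids induce in many tissues had 1 of 8 higher and 4 lower in IR (median -0.53). Klf9 averaged 25.1 ± 4.41 FPKM in IR and 48.0 ± 1.90 FPKM in sham (log2 difference -0.92, limma adjusted p = 7.86e-08). Fkbp5 and Ndrg2 were lower as well, and Ndrg2 averaged 49.3 ± 13.2 FPKM in IRLacz, 29.2 ± 6.93 FPKM in IR and 73.7 ± 4.26 FPKM in sham, with a difference of 0.73 in IRLacz minus IR (adjusted p = 0.0379). Per1, named after its values were seen, was the 1 higher gene, with 9.51 ± 2.77 FPKM in IR against 4.52 ± 1.94 FPKM in sham.

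The list of sodium and potassium transport partners of the channel had 6 of 7 tested genes lower and 0 higher in IR (median -0.66). Fxyd2, which encodes a small membrane protein that regulates sodium transport, averaged 2786 ± 174 FPKM in IR and 4584 ± 216 FPKM in sham (log2 difference -0.72, limma adjusted p = 0.000285). The potassium channel gene Kcnj16 averaged 103 ± 11.4 FPKM in IR and 145 ± 10.2 FPKM in sham (log2 difference -0.50, adjusted p = 0.000357). In IRLac minus IR, 0 of the 58 tested pathway genes passed with limma, where 0.00736% of all tested entries (1 entry) passed.

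**Figure D4:**
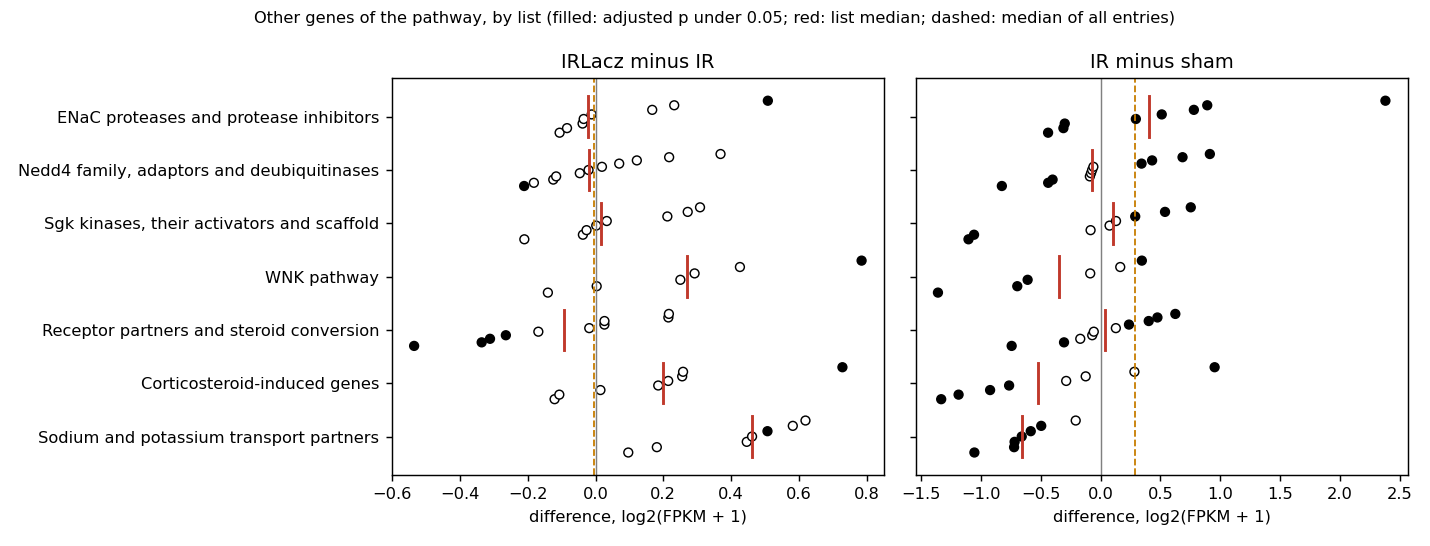
Fitted differences (x axis, log2(FPKM + 1)) of the tested genes of 7 lists (y axis) in IRLacz minus IR and in IR minus sham. Filled points passed at an adjusted p under 0.05, red bars are list medians and the dashed line is the median of all tested entries. The transport partners lie lowest in IR minus sham, with a median of -0.66, and their median in IRLacz minus IR is 0.46.

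Levels of cell type markers are given beside these results, to be read against the same shares and medians over all entries. The 7 principal cell markers summed to 422 to 951 FPKM in IRLacz, 285 to 840 FPKM in IRLac, 311 to 713 FPKM in IR and 301 to 502 FPKM in sham. In IR minus sham 1 of 7 was higher (the transcription factor gene Elf5) and 2 were lower (the water channel gene Aqp3 and the vasopressin receptor gene Avpr2). Aqp2, the water channel that defines these cells, averaged 557 ± 191 FPKM in IRLacz, 325 ± 139 FPKM in IR and 237 ± 54.8 FPKM in sham. In IRLacz minus IR, Aqp3 passed as higher (log2 difference 0.91, limma adjusted p = 0.0429) and Aqp2 did not (0.78, adjusted p = 0.108), and the median of the list was 0.61. Scnn1b and Scnn1g differed by 0.62 and 0.71 there. The part of these cells in the higher Scnn1b, Scnn1g and Nr3c2 was not tested.

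Connecting tubule markers summed to 852 to 2745 FPKM in IRLacz, 906 to 1840 FPKM in IRLac, 782 to 1484 FPKM in IR and 2840 to 3369 FPKM in sham, and 4 of 5 were lower and 1 higher in IR. All 3 markers of the distal convoluted tubule were lower in IR, and Slc12a3, the thiazide-sensitive transporter, was higher in IRLacz than in IR (179 ± 30.4 FPKM in IRLacz and 97.5 ± 36.1 FPKM in IR, adjusted p = 0.0288). Intercalated cells, which lie among the principal cells and are not the usual site of the channel, had summed markers of 136 to 175 FPKM in IRLacz, 108 to 174 FPKM in IRLac, 86.2 to 135 FPKM in IR and 169 to 197 FPKM in sham. Of these 8 markers, 7 were lower in IR minus sham, and 4 were higher in IRLacz minus IR. Thick ascending limb markers had 1 of 4 lower in IR minus sham and 0 called in IRLacz minus IR, and proximal tubule markers 5 of 5 lower and 0 called. Group means of Scnn1a ran from low to high in the order IR, IRLac, IRLacz and sham, as did the mean sums of the connecting tubule, distal convoluted tubule, thick ascending limb and intercalated lists. The principal cell sum, most of which is Aqp2, was highest in IRLacz and lowest in sham, although Avpr2 of that list was lower in IR than in sham.

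Macrophage markers summed to 449 to 1028 FPKM in IRLacz, 645 to 1502 FPKM in IRLac, 1084 to 1554 FPKM in IR and 81.8 to 112 FPKM in sham, with 6 of 6 higher in IR minus sham and 5 of 6 lower in IRLacz minus IR. Fibroblast markers had 6 of 6 higher in IR minus sham (median 2.53) and 4 of 6 lower in IRLacz minus IR (median -0.59). The part of these cells in the differences of the 7 genes was not tested. Of 5 adrenal cortex markers, 3 were found; Cyp11b1 and Cyp21a1, the defining ones, reached 1 FPKM in 0 of 19 libraries. The summed level of the 3 was at most 1.38 FPKM in any library.

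**Figure D5:**
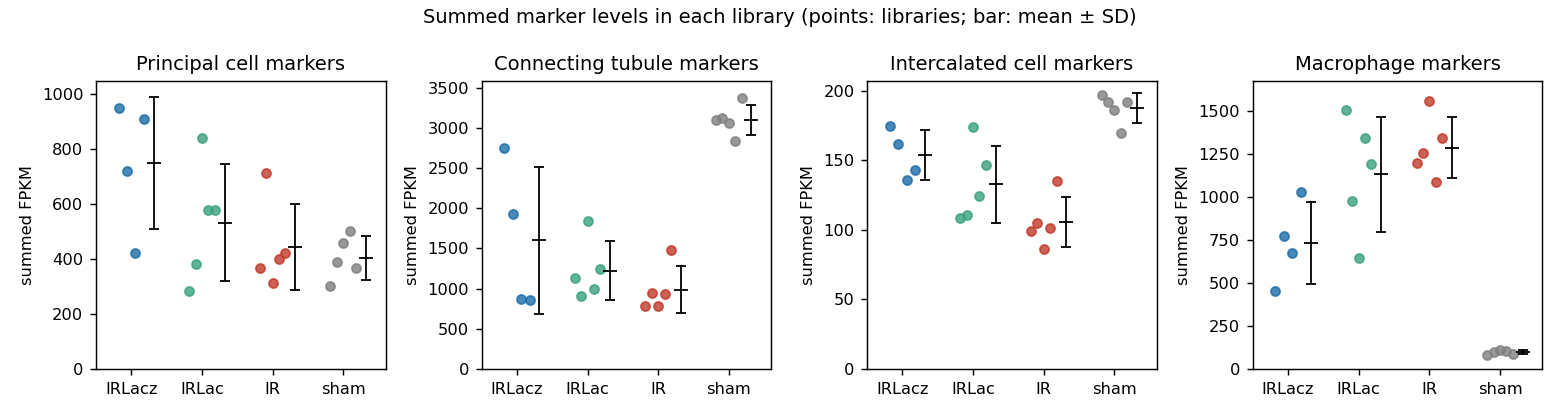
Summed FPKM (y axis) of the markers of principal cells, connecting tubule, intercalated cells and macrophages in each library, by group (x axis). Points are libraries and bars are mean ± SD (n = 4 for IRLacz, 5 for the others). Connecting tubule and intercalated sums have their highest means in sham (ranges 2840 to 3369 FPKM and 169 to 197 FPKM), and the macrophage sums of sham (81.8 to 112 FPKM) lie below all others.

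The genes whose profiles were nearest to each of the 7 were found by the mean absolute difference of z-scored log2(FPKM + 1) over the 19 libraries, which share group differences and tissue composition. Nearest to Scnn1a were Efhd1 (0.173), Atp6v1c2 (0.177) and Slc4a1 (0.186), the last of which is an intercalated cell marker. Scnn1b was nearest to Scnn1g (0.287), then Sostdc1 (0.320) and Hsd11b2 (0.348), and Scnn1g to Rab27a (0.273), Scnn1b and Nipsnap2 (0.294). Scnn1a was farther from its fellow subunits, at 0.843 from Scnn1b and 0.657 from Scnn1g. Hsd11b2 was nearest to Tmem213 (0.191), Gata2 (0.220) and Me3 (0.262). Nr3c2 had Ralgps1 (0.360), Xpc (0.376) and Tmprss2 (0.381) as its nearest. Sgk1, with Gpc1 (0.407), Gypc (0.412) and Bnip1 (0.417), and Nedd4l, with Tmem230 (0.530), Exph5 (0.626) and Ssbp2 (0.649), had no gene as near.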

How the data were processed

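The authors deposited a table of FPKM values with 2 decimals and 19 library columns. Per the submitters' processing notes, the tools were HISAT and StringTie 1.0.4 and the build mm9, with no roles given. RNA was extracted with Trizol, per the labels' protocols. Annotation, strand handling and read depth: not given in the sources used here. Gene IDs of 18238 entries were named through RefSeq.

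FPKM was transformed to log2(FPKM + 1) and tested with limma (version 3.58.1, R version 4.3.3) using a mean-variance trend, all 19 libraries in 1 model (15 residual degrees of freedom) and entries of at least 1 FPKM in at least 4 libraries (13594). P-values were adjusted by Benjamini-Hochberg within each comparison at 0.05; 95% intervals are not adjusted. Subunit ratios were compared by exact permutation over libraries. The fits were checked on simulated data with few changed entries and no shift of the median entry. That setting differs from IR minus sham, where 75.6% of tested entries passed. All 7 genes are named throughout, with up to 3 genes per list in IR minus sham, 2 in IRLacz minus IR and the 3 nearest profiles, by smallest adjusted p or distance; some genes under this rule are not reported here. The genes, lists and tests were chosen with earlier results of these data known. Alternatives were a pseudocount of 0.1, no filter, median-ratio and TPM scaling, fits of 2 groups only, a replicate block and libraries left out.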

Additional observations from a re-analysis of the deposited data

Results flagged for a closer look

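Scnn1b in IR replicate 3 was at 11.8 FPKM, the lowest of 5 IR libraries, with a gap to the next that covered 0.726 of the group's range. The Scnn1a/Scnn1b ratio in sham replicate 3 was 3.06, the highest of 5 sham libraries, with a gap of 0.918 of the range. Both gaps exceed Dixon's 95% value for 5 samples. These are 2 of 40 groups examined in this way, and chance alone gives about 1 in 20.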

How the results depend on the processing

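Under settings other than leaving out 1 library, counts of genes among the 7 moved by over 1.5 times in 4 cases and did not in 38. With 1 library left out they moved so in 10 cases and did not in 47, and most of the moves were in IRLacz minus IR. Median-ratio scaling gave 6 in IR minus sham and 6 in IRLac minus sham (against 3 and 2), and IRLacz minus sham gave 4 under TPM scaling and 4 with 2 groups only (against 2). The shares of all tested entries that passed under these settings are not set beside these counts. With 1 library left out, the number was 1 to 3 in IR minus sham, 0 to 5 in IRLacz minus IR and 1 to 3 in IRLacz minus sham. In IRLacz minus IR it was 0 without IR replicate 3, 1 without IRLacz replicate 1 or 2 or IR replicate 1 or 2, and 5 without IR replicate 5. In IR minus sham it was 1 without IR replicate 3 or sham replicate 3, and in IRLacz minus sham it was 1 without IRLacz replicate 3 or 4. Over all entries, IRLacz minus IR gave 1809 calls, 885 with 2 groups only and 606 to 2197 with 1 library left out, lowest without IR replicate 3. IRLacz minus IRLac gave 3 calls, 1 with a pseudocount of 0.1, 1 with 2 groups only, 5 with no filter, 86 without both IRLacz replicate 1 and IRLac replicate 3 (a choice made after seeing the data), and 1 to 490 with 1 library left out, highest without IRLac replicate 3. IRLac minus IR gave 1 call, 0 without those 2 libraries, and 0 to 116 with 1 left out, highest without IR replicate 5. The cause of these moves was not tested.

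Signs turned only in small differences that did not pass. Scnn1b in IRLac minus sham was -0.30 under median-ratio scaling, -0.0718 without the 2 libraries and -0.0718 to 0.21 with 1 left out. Hsd11b2 in IRLacz minus sham was -0.25 under median-ratio scaling. Nedd4l in IRLac minus sham was 0.0271 under TPM scaling, 0.0111 without the 2 libraries and -0.0615 to 0.0225 with 1 left out. With 1 left out, IRLacz minus IRLac was -0.0728 to 0.0215 for Nedd4l and -0.12 to 0.19 for Sgk1, and the Scnn1a/Scnn1b log2 ratio in IRLacz minus IR was -0.27 to 0.0682.

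Whether replicate numbers pair the libraries is not settled by correlations between them, which can be weak in paired libraries too. Of 27 same-numbered pairs, 6 had deviations correlated above 0.1 (range -0.39 to 0.23). A library set against another group correlated best with its own number in 14 of 54 cases. With the numbers as a replicate block, IR minus sham gave 10108 calls and IRLacz minus IR 1574, each with 3 of the 7 genes, IRLac minus IR gave 0 and IRLacz minus IRLac 1. In IRLacz minus sham under the block, Scnn1a did not pass (adjusted p = 0.0771), while Scnn1b (0.46, adjusted p = 0.0458) and Nr3c2 (0.35, adjusted p = 0.022) passed as higher. The log2 ratios in IR minus sham stayed at -0.85 and -0.66 with an adjusted p of 0.281 (exact sign-flip p = 0.0625, the smallest that 5 pairs can give).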

Other observations

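Among the genes that corticosteroids induce, Zbtb16, a transcription factor, was at 0.55, 0.86, 1.42 and 1.15 FPKM in the IRLacz libraries, 8.27, 0.78, 1.37, 1.54 and 3.17 FPKM in the IRLac libraries, 0.48, 0.59, 0.96, 0.72 and 0.52 FPKM in the IR libraries, and 4.33, 4.07, 2.52, 2.25 and 1.39 FPKM in the sham libraries. IRLac replicate 1 was the highest of all 19 libraries. Per1, a clock gene that steroids also induce, was at 3.6, 8.46, 12.2 and 18.6 FPKM in the IRLacz libraries and at 5.88, 9.5, 11.5, 7.88 and 12.9 FPKM in the IR libraries. The IRLacz libraries spanned more than the whole IR range. These genes were chosen after their values were seen.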
